A study of Mus musculus with 4 samples.

Results

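The Lyve1 Marco Cd163 macrophages described here are ascites cells of tumour-bearing mice that were picked by their transcripts. Cells with at least 30 UMIs (unique molecular identifiers, counted transcripts) of C1qa, C1qb and C1qc per 10000 and at most 1 UMI of Cd79a and Cd3e together were taken as macrophages. They were then sorted into 4 classes by which of 4 sums of UMIs was strictly the highest. The sums were Lyve1, Marco and Cd163, then Cx3cr1, Fcrls and Ms4a7, then Gpnmb, Ltc4s and Raph1, and last Prg4, Alox15 and Selp. The first sum was the highest in 316 cells, out of 1748 gated macrophages, 6419 ascites cells assigned to a mouse and 13160 assigned cells in the whole series. The other classes held 392, 724 and 136 cells, and 180 gated cells had tied sums. These classes were proposed from clusters of the same cells, so levels are compared between them as a description, with no test.

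The mice were B6 animals that carried the BeCon tumour, in a study of ovarian cancer by its title, and they received either vehicle or the drug YKL-05-099. The drug blocks SIK1, SIK2 and SIK3, the salt-inducible kinases, whose phosphorylation of CRTC proteins keeps these coactivators of CREB in the cytoplasm. Ascites cells of 4 vehicle and 4 treated mice were sorted as viable, CD45-positive and MHC class I-positive, marked with a hashtag antibody per mouse, and pooled in 1 droplet library. All groups carried the tumour, and age, sex, dose and duration of treatment are not given in the sources used here. The ascites library held 134034611 UMIs over 13688 barcodes, and 11112 of these passed the quality limits.

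Lyve1 encodes a hyaluronan receptor that is found on lymphatic endothelium and on subsets of tissue-resident macrophages. Marco is a class A scavenger receptor that binds bacteria and particles, and Cd163 takes up haemoglobin bound to haptoglobin. Fcna encodes ficolin A, a secreted lectin that starts the complement cascade, and Cd5l encodes a secreted scavenger-receptor protein that protects macrophages from apoptosis. In the peritoneal cavity and omentum, macrophages with these transcripts are known as resident cells of the serous lining. Their maintenance is known to depend on the receptor Csf1r and on transcription factors of the Maf family, while liver X receptors drive Cd5l.

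Fcna and Cd5l were not part of the gate. Their promoters are shown because both transcripts were lower in treated mice 1 to 3 than in vehicle mice. In the 9 cells of treated mouse 4 Fcna lay above every vehicle mouse (values below), but 1 of these cells held 20293 of the mouse's 27965 UMIs. The sequences are the 300 bases around each gene's start in the RefSeq table of GRCm38.p6, with the Fcna window at chr2:25627925-25628224 on the minus strand and the Cd5l window at chr3:87357631-87357930 on the plus strand. Capitals mark the letters TGCTGA, the arm of the palindromic Maf recognition element, searched on both strands, and in Cd5l they mark the palindrome that 2 arms on opposite strands form, TGCTGA followed after any 2 bases by TCAGCA. By the GENCODE annotation of GRCm38 the Fcna gene spans chr2:25624666-25628030 and Cd5l spans chr3:87357881-87371073, and the gate genes are Lyve1 at chr7:110850607-110863239, Marco at chr1:120474538-120505024 and Cd163 at chr6:124304656-124330527.
Fcna: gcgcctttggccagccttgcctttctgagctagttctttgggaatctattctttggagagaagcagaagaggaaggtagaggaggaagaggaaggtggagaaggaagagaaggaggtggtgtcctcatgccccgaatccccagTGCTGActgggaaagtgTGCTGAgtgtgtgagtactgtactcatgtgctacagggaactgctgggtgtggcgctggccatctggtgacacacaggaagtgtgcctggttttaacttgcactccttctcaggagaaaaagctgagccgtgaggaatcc
Cd5l: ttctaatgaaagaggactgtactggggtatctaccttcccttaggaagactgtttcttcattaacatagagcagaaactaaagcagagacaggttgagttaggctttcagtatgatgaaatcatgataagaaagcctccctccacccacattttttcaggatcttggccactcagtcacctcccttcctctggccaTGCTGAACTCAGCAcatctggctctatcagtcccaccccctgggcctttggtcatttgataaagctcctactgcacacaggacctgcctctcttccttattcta
The arm TGCTGA occurred in 6401 of 32851 promoters of the same length (19.5%). The palindrome occurred in 2 of them, and it was searched for after the Cd5l sequence had been seen. The Marco and Cd163 windows held neither pattern. These are matches of letters, and binding was not measured.

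The number of cells in the class was lower in every treated mouse than in every vehicle mouse. Vehicle mice 1 to 4 gave 72, 69, 69 and 52 cells, and treated mice 1 to 4 gave 15, 17, 13 and 9. As a share of the gated macrophages this was 24.0% ± 5.56 (SD, n = 4) for vehicle and 8.76% ± 1.17 (SD, n = 4) for treatment. As a share of all assigned ascites cells it was 7.55% ± 1.89 and 1.93% ± 0.579. The gate reads the same transcripts whose level per cell may differ between the arms, so fewer such cells and less of the transcripts per cell cannot be told apart, and the shares were not tested.

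Cells of the class were shallower in treated mice. The median UMIs per cell were 18950, 21339, 18025 and 17476.5 in vehicle mice 1 to 4, and 7955, 11746, 1740 and 990 in treated mice 1 to 4. The arms did not overlap, and over the 7 mice with at least 10 cells the means were 18947.6 ± 1706 and 7147 ± 5052 (SD; exact permutation p = 0.0286, two-sided, the smallest that 4 against 3 mice allow). Of the treated cells, 22 of 54 (40.7%) had under 3000 UMIs, against 7 of 262 (2.67%) in vehicle mice. Among cells with at least 3000 UMIs, in mice with at least 5 of them, the means were 19267 ± 1653 and 15557 ± 4257 (exact permutation p = 0.2). Cells with at least 3000 UMIs held 99.9% of the UMIs of the class in vehicle mice and 96.0% in treated mice. The sums of each arm thus rested almost entirely on them. In treated mouse 4 only 1 of 9 cells had that many, and it held 20293 of the mouse's 27965 UMIs.

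Many treated cells lay at the edge of the gate. The Lyve1, Marco and Cd163 sum had a median of 46.5 UMIs in vehicle cells and 2 in treated cells, and its lead over the highest other sum had a median of 21 and 2. In treated mice 25 of the 54 cells were inside by 1 UMI, with a median of 1017 UMIs per cell, and in vehicle mice 18 of 262 were. Just outside the gate, 66 treated and 70 vehicle cells were tied at the top, and 53 and 72 cells missed it by 1 UMI.

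**Figure D1:**
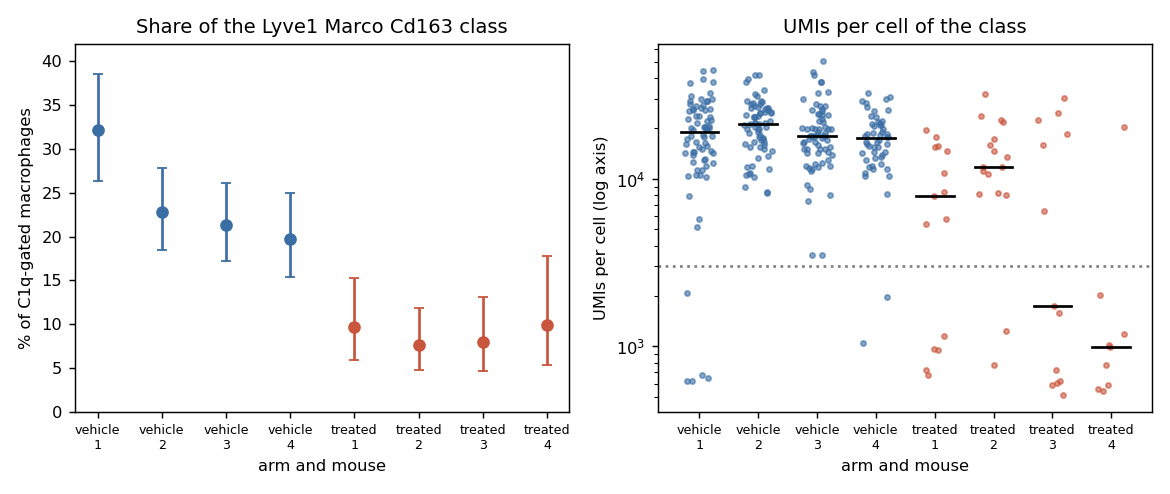
Left, the share of C1q-gated macrophages that fell in the Lyve1 Marco Cd163 class in each mouse, with Wilson 95% binomial intervals that cover counting error only. Right, UMIs per cell on a log axis, 1 point per cell, with the median of each mouse as a bar and a dotted line at 3000. Vehicle shares lay between 19.8% and 32.1% and treated shares between 7.59% and 9.89%, and 22 of the 54 treated cells lay under the line.

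The markers in the name held in vehicle mice, with exceptions for Cd163 and Cd5l. Lyve1 stood at 1073, 1037, 1114 and 739 CPM (UMIs of a gene scaled to a fixed total per mouse and class) in vehicle mice 1 to 4, a mean of 991 ± 171, against 221 ± 65.3 in the Gpnmb Ltc4s Raph1 class and 11.1 ± 2.0 in the Cx3cr1 Fcrls Ms4a7 class (SD, n = 4). Marco stood at 2126, 1006, 1913 and 3060 CPM, a mean of 2026 ± 843, and the Prg4 Alox15 Selp class had nearly as much at 1578 ± 472. Cd163 stood at 262, 207 and 237 CPM in vehicle mice 1 to 3 but at 11.9 CPM in vehicle mouse 4, which held 52 cells of the class. Cd163 was low in vehicle mouse 4 in the other classes too, at 1.8 and 15.1 CPM where the vehicle means were 19.2 and 53.3. Cd5l, at 356 ± 112 CPM, was lower here than in the Prg4 Alox15 Selp class, where it was 875 ± 108. These levels chose the class or its markers and are a description.

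The levels of Lyve1, Marco and Cd163 overlapped between the arms. Lyve1 stood at 548, 1791 and 570 CPM in treated mice 1 to 3, around the vehicle values. Marco stood at 1287, 296 and 2006 CPM and Cd163 at 87.4, 154 and 48.1 CPM, both overlapping the vehicle mice. Of treated mice 1 to 3, treated mouse 2 was the highest in Lyve1 and the lowest in Marco, and the 9 cells of treated mouse 4 gave 1967 and 215 CPM of these genes. In treated mouse 4, 1 of the cells held 20293 of 27965 UMIs.

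Levels in cells that should lack these transcripts were far lower. The gate chose the class by its sum of Lyve1, Marco and Cd163, and the B cells lay under its C1q limit. The contrast was thus partly set by the choice of cells and is a description. In B cells of the same library, Lyve1 stood at 14.5 ± 6.1 CPM, Marco at 19.5 ± 6.6, Cd163 at 4.3 ± 2.1, Fcna at 42.6 ± 6.9 and Cd5l at 5.6 ± 2.0 CPM in vehicle mice. After each cell was thinned to 3000 UMIs, Lyve1 was detected in 60% of 255 vehicle cells of the class and 2.42% of 579 vehicle B cells. Without thinning the shares were 72.2% and 7.60%, at medians of 18933 and 4947 UMIs per cell. For Fcna the thinned shares were 83.9% and 13.1% in vehicle cells, and 71.9% and 12.3% in treated cells of the class (32 cells) and treated B cells (284 cells).

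**Figure D2:**
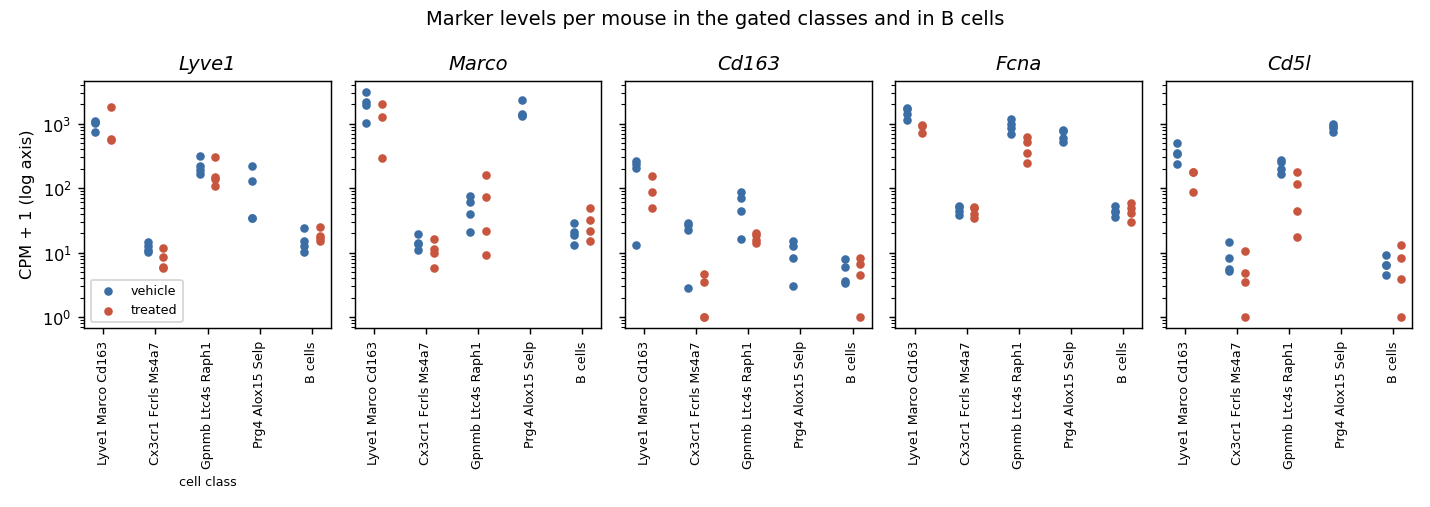
Levels of Lyve1, Marco, Cd163, Fcna and Cd5l in CPM + 1 on a log axis, 1 point per mouse, in the 4 gated classes and in B cells, with vehicle mice in blue and treated mice in red. Lyve1 was highest in the Lyve1 Marco Cd163 class, while Marco and Cd5l were also high in the Prg4 Alox15 Selp class. Lyve1, Marco and Cd163 were part of the gate.

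Markers of other cell types were scarce in the class, apart from haemoglobin. The 5 B cell markers summed to 14.1 to 26.6 CPM in vehicle mice and 17.1 to 179 CPM in treated mice, and the 5 T cell markers to 1.48 to 17.2 and 7.95 to 71.5 CPM. Each NK cell, dendritic cell and mast cell list stayed under 40 CPM in every mouse, and of the 6 tumour and mesothelial markers all were at 0 in treated mice. The 5 neutrophil markers summed to 81.8 to 115 CPM and 29.99 to 215 CPM, and the 5 monocyte markers to 123 to 205 and 107 to 159 CPM. The 5 erythroid markers summed to 56.9 to 769 CPM in vehicle mice and 17.1 to 2728 CPM in the 4 treated mice, with Hba-a1 at 843 CPM in treated mouse 3 and at 0 in treated mice 1 and 2. The 9 general macrophage markers summed to 12783 to 13488 CPM in vehicle mice and 6794 to 11708 CPM in treated mice. They include C1qa, C1qb and C1qc of the gate, with vehicle means of 4102, 3458 and 2889 CPM. Cd79a and Cd3e, which the gate limits, are among the B cell and T cell markers. These sums were thus in part set by the gate. The part of transcripts of other cell types in the results below was not tested.

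Outside the gate, Fcna had the largest ratio to the other classes in vehicle mice. It stood at 1708, 1157, 1403 and 1768 CPM, a mean of 1509 ± 284, which was 1.62 times the level of the Gpnmb Ltc4s Raph1 class and far above the 45.7 CPM of the Cx3cr1 Fcrls Ms4a7 class. Of 1271 genes with at least 100 CPM in the class, 247 were higher here than in any other gated class and 0 were more than 2 times higher than in the highest of them.

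Genes of the next ranks served several functions. Hmox1, haem oxygenase, which breaks haem down to iron and biliverdin, stood at 3725, 3982, 4107 and 1934 CPM in vehicle mice 1 to 4, against a mean of 2521 CPM in the Gpnmb Ltc4s Raph1 class. Slc48a1, which carries haem out of the lysosome, stood at 194 ± 36.0 CPM and 1.24 times the next class. Cd36, a receptor for oxidised lipoproteins and fatty acids, stood at 570 ± 176 CPM, with vehicle mouse 4 the lowest at 312 CPM. Mtss1 (219 ± 17.5 CPM) and Tns1 (109 ± 10.2 CPM), which act on membranes and the actin cytoskeleton, were 1.52 and 1.40 times the next class, and both were above every other class in all 4 vehicle mice.

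The rest of the 20 leading genes were Serpinb6a, Agtrap, Pmp22, Bin1, Rhoc, Gm14636, Tmcc1, Camk1, Galnt1, Plk2, Tmem165, Adam15, Igfbp4 and Sdc3, at 1.23 to 1.46 times the next class. Serpinb6a, an inhibitor of serine proteases, stood at 383 ± 44.7 CPM, and Sdc3, a heparan sulphate proteoglycan, at 672 ± 83.7 CPM. At the other end, Ptgs2, the inducible cyclooxygenase that makes prostaglandins, stood at 53.8 ± 17.7 CPM here against 104 to 239 CPM in the other classes. Rel, a subunit of NF-kappaB, stood at 106 ± 6.08 CPM against 134 to 165 CPM.

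Within the class most cells were led by either Lyve1 or Marco. Of 255 vehicle cells with at least 3000 UMIs, Marco had the most UMIs of the 3 gate genes in 127, Lyve1 in 105 and Cd163 in 22, with 1 tie. All 3 transcripts were detected in 39 of these cells, and 108 held both Lyve1 and Marco. Lyve1 alone was detected in 50 and Marco alone in 44. Lyve1 exceeded Marco in 49.3%, 53.6%, 42.03% and 28.0% of the cells of vehicle mice 1 to 4, and in 40%, 80% and 66.7% of the 10, 15 and 6 such cells of treated mice 1 to 3. The arms overlapped, and vehicle mouse 4 held the smallest share of Lyve1-led cells.

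Across the 255 vehicle cells Lyve1 and Marco had a Spearman correlation of -0.39 and across the 32 treated cells one of -0.65. The gate itself selected on their sum, and over all 1037 vehicle and 545 treated gated macrophages of this depth the correlations were 0.09 and 0.08. Folr2, the folate receptor beta of resident macrophages, went with Lyve1 at 0.58, and Fcna did so at 0.45. Cd5l and Timd4, a receptor for phosphatidylserine on dying cells, went with Marco at 0.27 and 0.29. Cells of 1 mouse and library share their depth and their free RNA, so these values describe the cells and carry no test.

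**Figure D3:**
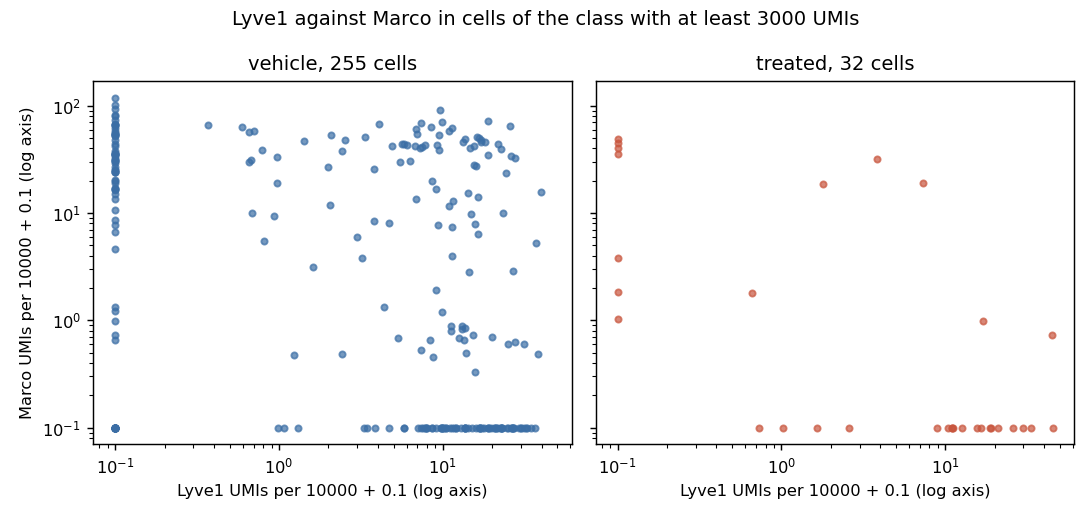
Lyve1 against Marco in single cells of the class with at least 3000 UMIs, in UMIs per 10000 + 0.1 on log axes, for 255 vehicle cells and 32 treated cells. Points on the lowest line of an axis had 0 UMIs of that gene, and 108 vehicle cells and 6 treated cells held both transcripts.

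Cells led by Lyve1 and cells led by Marco also differed in other genes of vehicle mice, given here as a description because the split uses the same cells. Ccl7, a chemokine for monocytes, stood at 226 ± 70.8 CPM in Lyve1-led and 89.5 ± 47.7 CPM in Marco-led cells, and was higher in the Lyve1-led cells of 4 of 4 mice. Gas6, a bridging ligand between dying cells and the receptors Axl and Mertk, stood at 416 ± 54.9 and 177 ± 77.9 CPM. Mrc1, the mannose receptor, stood at 600 ± 38.3 and 306 ± 78.9 CPM, Igfbp4 at 230 ± 123 and 81.8 ± 16.2 CPM, and Rin2, a regulator of the endosomal GTPase Rab5, at 124 ± 48.6 and 57.3 ± 7.70 CPM. All 4 of these were higher in the Lyve1-led cells of every vehicle mouse.

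Genes higher in Marco-led cells included Thbs1, F10, Tgm2 and Slc7a11. Thbs1, thrombospondin, stood at 734 ± 382 CPM in Marco-led and 264 ± 104 CPM in Lyve1-led cells. F10, a coagulation factor, stood at 110 ± 41.4 and 44.6 ± 16.6 CPM, and Tgm2, a transglutaminase, at 166 ± 89.2 and 53.5 ± 19.6 CPM. Slc7a11, the cystine importer, stood at 116 ± 42.7 and 34.3 ± 32.4 CPM. These 4 genes were higher in the Marco-led cells of every vehicle mouse. Haemoglobin transcripts had the largest ratio of means toward Lyve1-led cells, but the mice were not alike. Hbb-bs stood at 44.4, 232, 15.8 and 1040 CPM in Lyve1-led cells of vehicle mice 1 to 4. In Marco-led cells it stood at 60.4, 24.8, 47.1 and 23.8 CPM. It was thus higher in the Lyve1-led cells of 2 of 4 mice, while Hba-a1 was so in 3 and Hba-a2 in 4.

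The treatment comparison asked which genes differed between treated and vehicle mice within the class. UMIs were summed per mouse, and the 4 vehicle mice and treated mice 1 to 3 entered the test, with 5160222 and 483883 UMIs per arm. Treated mouse 4 had 9 cells and did not enter. Of 7242 genes tested, 137 (1.89%) passed an adjusted p of 0.05 in edgeR's quasi-likelihood test, 56 of them (0.773%) higher and 81 (1.12%) lower in treated mice. The unadjusted p was at most 0.05 for 1101 genes, and the arms did not overlap for 1348 genes (18.6%). The numbers marking mice do not show whether animals were housed or treated together, so p-values cover the spread between these mice.

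The count depended on single mice. It was 62, 80 and 77 without vehicle mouse 1, 2 or 3 and 218 without vehicle mouse 4, and it was 68 and 48 without treated mouse 1 or 2 and 144 without treated mouse 3. With cells of at least 3000 UMIs, a choice made after seeing the data, 134 genes passed, and 126 of these were among the 137. C1qa and Alox15, both part of the gate, are among the 137 and are not discussed.

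The genes that rose included Crem, Cd83, Gas2l3, Fabp5 and a few interferon-linked genes. Those that fell included genes of receptors and secreted proteins, such as Ccr1, Apoe, Axl, Il10 and Vsig4. Of the 50 genes named by the rule for this comparison, 38 passed the threshold. Gas2l3, Cd83, Trim25, Ccr1, Rin2 and Trf passed it under all alternatives in which they were tested, and Fabp5 and S100a4 did so without any single mouse.

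**Figure D4:**
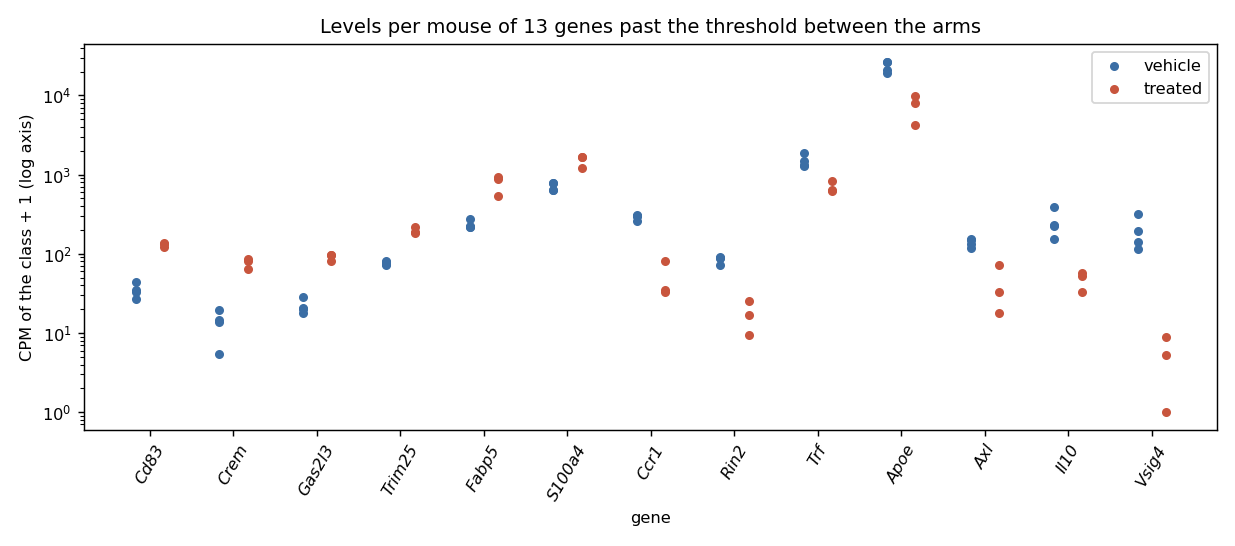
Levels of 13 genes past the threshold in CPM + 1 of the class on a log axis, 1 point per mouse, with 4 vehicle mice in blue and treated mice 1 to 3 in red. The arms did not overlap for any of the 13, nor for 18.6% of all tested genes. Lack of overlap was itself a condition for naming the largest changes, so it carries no support for them. Vsig4 rested on 2 UMIs in the treated arm.

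CREB and its CRTC coactivators lie downstream of the kinases that YKL-05-099 inhibits, and Crem and Il10 are known targets. Crem, which encodes a cAMP-responsive transcription factor, stood at 13.6, 12.7, 4.43 and 18.5 CPM in vehicle mice 1 to 4 and at 79.5, 85.7 and 64.2 CPM in treated mice 1 to 3. Treated mice 1 to 3 lay above all vehicle mice, which was itself a condition for naming the largest changes. The arms did not overlap for 18.6% of all tested genes. The log2 change of Crem was 2.60 ± 0.40 (SE, edgeR adjusted p = 0.00476). The adjusted p ran from 1.3e-08 to 0.0509 over the alternatives, the highest being without treated mouse 2. Treated mouse 4, with 27965 UMIs in all, had 0 UMIs of Crem.

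Il10, the anti-inflammatory cytokine, moved the other way. It stood at 393, 228, 151 and 226 CPM in vehicle mice and 55.6, 51.4 and 32.1 CPM in treated mice, with no overlap and a log2 change of -2.49 ± 0.42 (edgeR adjusted p = 0.00988). The call was lost without treated mouse 1, 2 or 3, with adjusted p of 0.0872, 0.181 and 0.0739, in a range of 2.6e-16 to 0.181 over the alternatives. B cells of the same mice held 29.5 ± 4.77 CPM of Il10 in vehicle and 31.4 ± 9.12 CPM in treated mice.

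Of 15 genes on the CREB-CRTC list 13 passed the filter on low counts, and their median log2 change was 0.06 against -0.01 over all genes tested. Of these 1 rose (Crem) and 1 fell (Il10), beside 0.773% and 1.12% of all genes tested. Nr4a1, an immediate early nuclear receptor, stood at 106 ± 29.2 CPM in vehicle and 87.6 ± 35.3 CPM in treated mice (log2 change -0.45 ± 0.33, edgeR adjusted p = 0.571). The kinases themselves were low. Sik1 stood at 68.0 ± 26.3 and 90.9 ± 40.3 CPM, Sik2 at 9.05 ± 4.95 and 24.4 ± 13.6 CPM, and Sik3 at 19.7 ± 3.10 and 23.3 ± 7.08 CPM (edgeR adjusted p = 0.818, 0.327 and 0.852). The arms overlapped for all 3 kinases.

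Other genes that rose acted in activation, lipid binding and the nucleus. Cd83, a surface protein of activated antigen-presenting cells, stood at 34.4, 42.9, 31.8 and 26.1 CPM in vehicle mice and 135, 133 and 120 CPM in treated mice. Its log2 change was 1.83 ± 0.24 (edgeR adjusted p = 0.0016), and the 9 cells of treated mouse 4 gave 107 CPM, on few of that mouse's 27965 UMIs. Gas2l3, a cytoskeletal linker protein, rose from 20.8 ± 4.58 to 90.002 ± 9.19 CPM (log2 change 2.01 ± 0.29, adjusted p = 0.00256). Fabp5, a fatty acid binding protein, stood at 226, 216, 275 and 217 CPM in vehicle mice and 930, 531 and 875 CPM in treated mice (log2 change 1.66 ± 0.21, adjusted p = 0.00113). Its 250 CPM in treated mouse 4 lay within the vehicle range, and with at most 5% mitochondrial UMIs and 5 cells per mouse, which lets that mouse in, the log2 change was 0.91 and the adjusted p 0.109, the highest of 18 alternatives.

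Of the rest, Lhfpl2, Rsrp1, Atp8b4 and Lmnb1 lost their calls without treated mouse 2. Lhfpl2 stood at 15.5 to 25.8 CPM in vehicle mice and at 55.6, 150 and 56.2 CPM in treated mice (log2 change 2.19 ± 0.35). Rsrp1 stood at 46.7 to 96.8 CPM and at 159, 364 and 144 CPM (log2 change 1.67 ± 0.30). Atp8b4, a phospholipid flippase, stood at 26.3 ± 4.03 and 87.5 ± 15.7 CPM, and Lmnb1, lamin B1, at 29.4 ± 7.60 and 94.7 ± 30.4 CPM (log2 changes of 1.67 ± 0.27 and 1.65 ± 0.30). Their edgeR adjusted p were 0.00476, 0.0128, 0.00484 and 0.00988, and without treated mouse 2 they were 0.202, 0.176, 0.0676 and 0.18, with log2 changes of 1.44, 1.08, 1.54 and 1.39.

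Among genes induced by type I interferon, 4 rose and 0 fell. Of 26 genes on the list 17 passed the filter, and their median log2 change was 0.78 against -0.01 over all genes tested. Of all genes tested 0.773% rose and 1.12% fell. Trim25, a ubiquitin ligase that activates the RNA sensor RIG-I, stood at 70.2, 77.1, 73.9 and 79.3 CPM in vehicle mice and 215, 189 and 185 CPM in treated mice (log2 change 1.30 ± 0.19, edgeR adjusted p = 0.00256). Irf7 and Stat2 are transcription factors of the interferon response. Irf7 stood at 16.3 to 35.1 CPM and at 127, 68.5 and 64.2 CPM, and Stat2 at 10.3 to 17.9 CPM and at 63.6, 47.1 and 40.1 CPM. Neither overlapped between the arms. Their log2 changes were 1.72 ± 0.36 and 1.58 ± 0.37 (adjusted p = 0.0234 and 0.04).

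Both of these calls were fragile. Irf7 lost its call without vehicle mouse 2 or 3 or treated mouse 1 or 2 (adjusted p of 0.057, 0.0553, 0.15 and 0.0584), and it kept it without the others. Stat2 kept its call without vehicle mouse 4 and lost it without any other mouse, with adjusted p between 0.0634 and 0.165. Isg15 and Rsad2, which are strongly induced by interferon in many cells, had log2 changes of 0.01 ± 0.53 and -0.72 ± 0.83 and edgeR adjusted p of 1 and 0.745.

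Monocyte genes split. Of 9 on the list 7 passed the filter, with a median log2 change of 0.08. Of these 3 rose and 0 fell, beside 0.773% and 1.12% of all genes tested. S100a4 and S100a6, calcium-binding proteins of migrating cells, rose from 710 ± 80.4 to 1512 ± 257 CPM and from 769 ± 43.0 to 1573 ± 562 CPM (log2 changes 1.02 ± 0.16 and 0.95 ± 0.18, edgeR adjusted p = 0.00476 and 0.0101). Without treated mouse 2 the adjusted p of S100a6 was 0.0509. Ccr2, the monocyte chemokine receptor, stood at 93.3 and 51.4 CPM and Lyz1 at 214 and 69.1 CPM, with log2 changes of -1.06 ± 0.60 and -1.74 ± 0.64 (adjusted p = 0.456 and 0.265).

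Among the genes that fell, Ccr1 had the smallest adjusted p. Ccr1, a receptor for inflammatory chemokines, stood at 300, 312, 258 and 300 CPM in vehicle mice and 31.8, 34.3 and 80.2 CPM in treated mice (log2 change -2.74 ± 0.29, edgeR adjusted p = 0.000265). Rin2 stood at 71.7, 86.5, 87.2 and 90.2 CPM and at 15.9, 8.57 and 24.1 CPM (log2 change -2.60 ± 0.38, adjusted p = 0.00256). Every treated mouse was below every vehicle mouse for both, but lack of overlap was a condition for naming them and held for 18.6% of all tested genes.

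Of the genes for haem and iron handling, Trf fell. Trf, transferrin, the iron carrier of plasma, stood at 1869, 1338, 1483 and 1276 CPM in vehicle mice and 644, 625 and 835 CPM in treated mice, without overlap (log2 change -1.16 ± 0.19, edgeR adjusted p = 0.00504). It was the only one of 12 tested haem and iron genes to pass, with a list median of -0.37. Of 9 tested complement genes 1 fell and 0 rose, with a median log2 change of -0.78, beside the 1.12% and the median of -0.01 over all genes tested.

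Hmox1 missed the threshold. It stood at 3725, 3982, 4107 and 1934 CPM in vehicle mice and 1398, 1195 and 1942 CPM in treated mice, so vehicle mouse 4 lay within the treated range. The log2 change was -1.25 ± 0.28 (edgeR adjusted p = 0.0502), and without vehicle mouse 4 it was -1.43 with an adjusted p of 0.000228. Over the alternatives the adjusted p ran from 4.2e-12 to 0.315.

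Genes linked to Kupffer cells and liver X receptors did not all move the same way, though those past the threshold fell. Of 13 on the list 11 passed the filter, 5 fell and 0 rose, with a median log2 change of -0.87. Of all tested genes 1.12% fell, 0.773% rose and the median was -0.01. Abca1, Id3, Slc40a1 and Nr1h3 on this list had log2 changes of 0.30, 0.77, 0.33 and 0.01, none past the threshold. Abca1 stood at 235 to 302 CPM in vehicle mice and 310, 420 and 313 CPM in treated mice 1 to 3, without overlap (edgeR adjusted p = 0.474). Apoe, the apolipoprotein that carries cholesterol out of macrophages, stood at 26649, 19409, 26738 and 20753 CPM in vehicle mice and 7898, 4224 and 9790 CPM in treated mice (log2 change -1.73 ± 0.31, edgeR adjusted p = 0.0309). Abcg1, a cholesterol exporter, stood at 60.9, 53.0, 62.1 and 63.0 CPM and at 7.95, 21.4 and 16.05 CPM (log2 change -1.94 ± 0.37, adjusted p = 0.0116). Vsig4, the complement receptor CRIg of resident macrophages, stood at 315, 138, 191 and 115 CPM, while treated mice 1 to 3 held 1, 1 and 0 UMIs. The ratio of the summed levels of Vsig4 was 47.4 with an exact 95% counting interval of 13.1 to 392 (edgeR adjusted p = 0.0137).

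The calls of Apoe, Abcg1 and Vsig4 were lost in some of the fits without 1 mouse. Apoe lost its call without vehicle mouse 1, vehicle mouse 4 or treated mouse 1, with adjusted p of 0.0517, 0.083 and 0.0872. Abcg1 lost it without treated mouse 1 or 2, at 0.0505 and 0.0536. Vsig4 lost it without treated mouse 1, 2 or 3, at 0.0947, 0.202 and 0.064. Over the alternatives the adjusted p ran from 1.2e-17 to 0.0878 for Apoe and from 3.0e-25 to 0.202 for Vsig4. B cells held 2613 ± 586 CPM of Apoe in vehicle and 2078 ± 328 CPM in treated mice.

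Fcna and Cd5l, whose promoters are printed above, were among the 5. Fcna stood at 1708, 1157, 1403 and 1768 CPM in vehicle mice and 930, 720 and 947 CPM in treated mice, without overlap (log2 change -0.87 ± 0.19, edgeR adjusted p = 0.0303). Treated mouse 4, left out for its 9 cells, had 27965 UMIs in all, 20293 of them in 1 cell. It had 2074 CPM of Fcna, above every vehicle mouse, and with that mouse included the log2 change was -0.59 and the edgeR adjusted p 0.19. Cd5l stood at 351, 335, 233 and 504 CPM in vehicle mice and 87.4, 180 and 177 CPM in treated mice (log2 change -1.32 ± 0.29, adjusted p = 0.0303), and at 35.8 CPM in treated mouse 4. Without vehicle mouse 1, vehicle mouse 3, treated mouse 1 or treated mouse 2 the adjusted p of Fcna was 0.144, 0.0862, 0.065 and 0.0928. Without vehicle mouse 1 or 2 or treated mouse 1, 2 or 3 that of Cd5l was 0.0888, 0.0644, 0.13, 0.184 and 0.0747. Over all alternatives both lay between 1.7e-07 and 0.19.

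The 11 tested genes of growth factor receptors and macrophage identity had a median log2 change of -0.22. Of these 2 fell and 0 rose, beside 1.12% and 0.773% of all genes tested. Csf1r, the receptor for the growth factors CSF1 and IL-34, stood at 627, 596, 583 and 626 CPM in vehicle mice and 286, 300 and 457 CPM in treated mice, without overlap (log2 change -0.89 ± 0.19, edgeR adjusted p = 0.0288). It lost its call without vehicle mouse 1, 2 or 3 or treated mouse 1 or 2, with adjusted p of 0.124, 0.0841, 0.0862, 0.0984 and 0.105. Maf, a transcription factor of resident macrophages, stood at 454 ± 131 and 357 ± 93.5 CPM with overlap (log2 change -0.41 ± 0.25, adjusted p = 0.456), and Adgre1, which encodes F4/80, at 159 ± 16.2 and 145 ± 56.6 CPM (adjusted p = 0.719).

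Of the genes for the uptake of apoptotic cells, Axl, Itgb5 and Mertk fell in treated mice. Of 13 genes on the list 10 passed the filter, 3 fell and 0 rose, with a median log2 change of -0.76, where 1.12% of all tested genes fell and the median was -0.01. Axl and Mertk are receptor kinases that bind Gas6 on dying cells, and Itgb5 is the beta chain of an integrin that binds the bridging protein Mfge8. Axl stood at 146, 117, 152 and 133 CPM in vehicle mice and 31.8, 17.1 and 72.2 CPM in treated mice (log2 change -2.01 ± 0.35, edgeR adjusted p = 0.00786). Itgb5 stood at 98.9 to 123 CPM and at 79.5, 29.99 and 24.1 CPM (log2 change -1.48 ± 0.32, adjusted p = 0.0283). Mertk stood at 138 to 185 CPM and at 47.7, 38.6 and 128 CPM (log2 change -1.31 ± 0.32, adjusted p = 0.05). The arms overlapped for none of these 3 genes, nor for 18.6% of all tested genes. On the same list Itgav and Pros1 were lower and Stab1 was higher without overlap (log2 changes of -1.09, -1.34 and 0.41). None of those passed the threshold.

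Axl lost its call without treated mouse 2 (edgeR adjusted p = 0.0621). Itgb5 lost it without vehicle mouse 1, 2 or 3 or treated mouse 2 or 3 (adjusted p between 0.0678 and 0.2). Mertk lost it without vehicle mouse 1, 2 or 3 or treated mouse 1 or 2 (adjusted p between 0.0879 and 0.285). The ligand Gas6 stood at 271 and 247 CPM in vehicle and treated mice (log2 change -0.23 ± 0.26, adjusted p = 0.737).

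The 16 lipid handling genes, all tested, had a median log2 change of -0.73. Of these 4 fell and 1 rose, beside 1.12% and 0.773% of all genes tested. The 4 were Apoe, Abcg1, Apoc4 and Lpl, and the 1 that rose was Fabp5. Apoc4, an apolipoprotein, stood at 36.9 to 99.0 CPM in vehicle mice and rested on 1, 0 and 2 UMIs in treated mice, a ratio of summed levels of 12.6 with an exact 95% counting interval of 4.29 to 61.5 (edgeR adjusted p = 0.0337). Its adjusted p was above 0.05 without vehicle mouse 1 or 2 or any of treated mice 1 to 3, at 0.0523 to 0.234. Lpl, lipoprotein lipase, was outside the rule for named genes and was chosen after its values were seen. It stood at 322 ± 34.1 and 179 ± 59.0 CPM (log2 change -0.94 ± 0.22, adjusted p = 0.04). Trem2, a lipid receptor, stood at 512 and 347 CPM (log2 change -0.65 ± 0.24, adjusted p = 0.192).

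Arg1 and Itga6 also fell. Arg1, arginase, which depletes arginine, stood at 3327, 3718, 3246 and 2937 CPM in vehicle mice and 1653, 1551 and 2640 CPM in treated mice (log2 change -0.83 ± 0.19, edgeR adjusted p = 0.0381). It was past the threshold with Il10 among 12 tested anti-inflammatory and repair genes, whose median was -0.70. Of all genes tested 1.12% fell. Itga6, an integrin chain of large peritoneal macrophages, stood at 107, 113, 109 and 188 CPM and at 47.7, 21.4 and 72.2 CPM (log2 change -1.68 ± 0.39, adjusted p = 0.04). It was the only one of 8 tested large peritoneal macrophage genes to pass, with a list median of -1.71. Both lost their calls without vehicle mouse 1, 2 or 3 or treated mouse 1 or 2, with adjusted p between 0.113 and 0.15 for Arg1 and between 0.0627 and 0.264 for Itga6.

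The remaining named genes that fell had few UMIs in treated mice. Ccl12, a monocyte chemokine, stood at 41.3 to 93.9 CPM in vehicle mice and had 4 UMIs in treated mice 1 to 3 (log2 change -3.21 ± 0.59, edgeR adjusted p = 0.00988). The 9 cells of treated mouse 4 gave 71.5 CPM, on few of that mouse's 27965 UMIs. Tagap had 247 and 4 UMIs per arm (log2 change -2.63 ± 0.52) and Ctla2b 365 and 6 (log2 change -2.57 ± 0.47). Abcd2, a peroxisomal fatty acid transporter, and Hlx, a homeobox factor, had 2 UMIs each in the treated arm, with ratios of 7.92 (interval 2.16 to 66.0) and 7.08 (interval 1.93 to 59.0) over vehicle. Their adjusted p were 0.0137, 0.00988, 0.0323 and 0.0342. Ccl12 and Tagap lost their calls without treated mouse 1 or 2 (adjusted p of 0.0638 and 0.0621, and of 0.0593 and 0.132), and Ctla2b without treated mouse 2 (0.083). Abcd2 lost its call without vehicle mouse 2 or 3 or treated mouse 1 or 2 (adjusted p up to 0.2), and Hlx without those or vehicle mouse 1 (up to 0.208).

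Several lists held no call. These were scavenger receptors (0 of 13 tested, median log2 change -0.19), MHC class II presentation (0 of 6, 0.27), inflammatory cytokines (0 of 6, -0.11), lysosome genes (0 of 15, -0.26), proliferation (0 of 8, 0.21) and dissociation stress (0 of 10, 0.11), in edgeR's test. Of all genes tested 1.89% passed, and at this depth a count of 0 does not show that the arms were alike. Mrc1 stood at 303 to 516 CPM in vehicle mice and at 199, 553 and 177 CPM in treated mice (log2 change -0.58 ± 0.34, adjusted p = 0.466), and without treated mouse 2 its log2 change was -1.32 with an adjusted p of 0.0402, in a range of 0.0332 to 0.779 over the alternatives.

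Other markers of resident macrophages overlapped between the arms. Folr2 stood at 332 to 431 CPM in vehicle mice and 326 to 604 CPM in treated mice (log2 change 0.11 ± 0.19, edgeR adjusted p = 0.843). Timd4 stood at 21.5 to 89.1 CPM and at 23.8, 0 and 96.3 CPM (log2 change -0.83 ± 1.33, adjusted p = 0.839). Id3 stood at 44.0 ± 27.9 and 81.7 ± 39.7 CPM, and Slc40a1, the iron exporter ferroportin, at 38.3 ± 38.0 and 58.9 ± 66.1 CPM (adjusted p = 0.694 and 0.956). Of 13 resident-type genes, all tested, 1 fell and 0 rose, and the median was -0.41. Of 15 tested chemokines Ccl12 was the only one past the threshold, with a median of -0.40. Over all genes tested 1.12% fell and 0.773% rose.

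**Figure D5:**
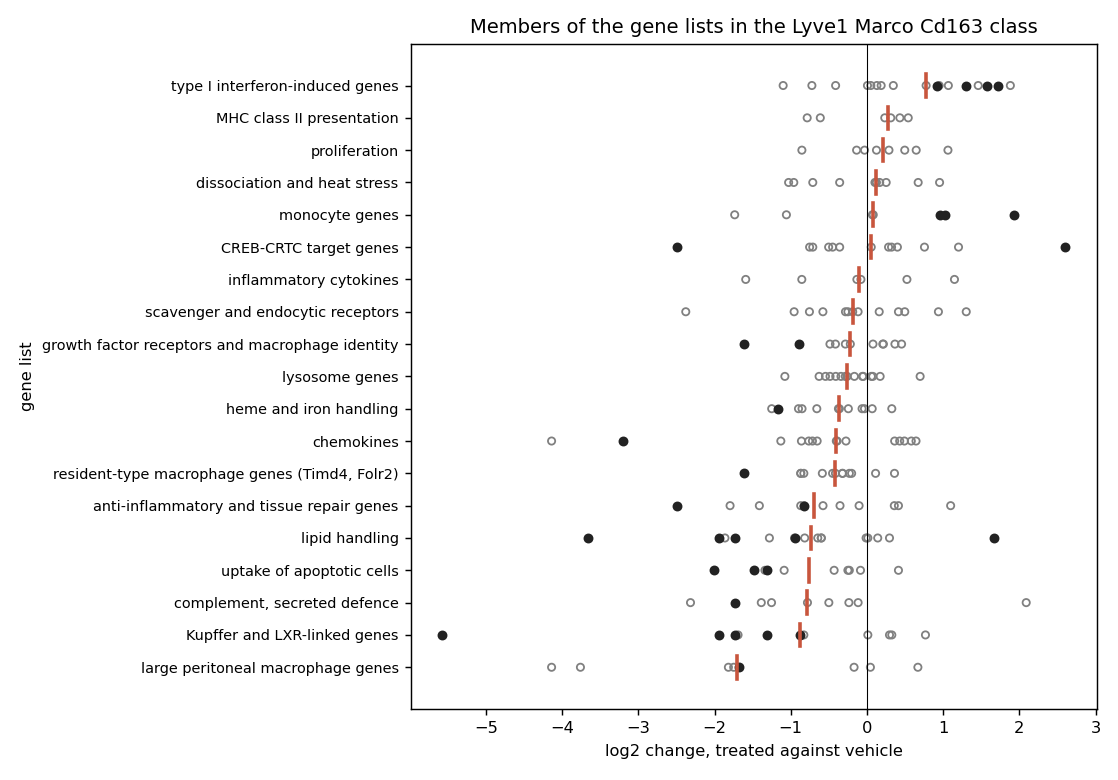
Log2 change between treated and vehicle mice, 1 point per tested member of each gene list, with filled points past the threshold and the median of the list as a red bar. Interferon-induced genes have the highest median (0.78) and large peritoneal macrophage genes the lowest (-1.71), and the lists were ordered by these values.

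Whether the changes were particular to the class was tested as the difference of the treatment change from that in another gated class of the same mice. Against the Cx3cr1 Fcrls Ms4a7 class, 13 of 8534 genes (0.152%) passed an adjusted p of 0.05 in edgeR's test with the mouse as a block, and 687 had an unadjusted p of at most 0.05. Within the other class itself the treatment changed 273 of 7253 genes (3.76%). The count of 13 was 22, 6 and 30 without vehicle mouse 2, 3 or 4 and 1 and 3 without treated mouse 1 or 2.

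The genes that differed included Apoe, Axl and Hmox1, whose log2 changes were more negative here than in the Cx3cr1 Fcrls Ms4a7 class. None of the 3 passed the threshold for a difference from the Gpnmb Ltc4s Raph1 class (edgeR adjusted p = 0.216, 0.76 and 0.745). Axl fell within that class too, with a log2 change of -1.36 (adjusted p = 3.9e-05). Apoe stood at 11486 CPM in vehicle and 8772 CPM in treated mice in the Cx3cr1 Fcrls Ms4a7 class, against 23387 and 7304 CPM here (difference of log2 changes -1.59 ± 0.21, edgeR adjusted p = 0.0037). Axl stood at 166 and 174 CPM there and 137 and 40.4 CPM here (-2.19 ± 0.36, adjusted p = 0.0037). Hmox1 stood at 1244 and 1135 CPM there and 3437 and 1512 CPM here (-1.23 ± 0.21, adjusted p = 0.00432). Apoe lost this call without treated mouse 1 (0.171) and Axl without treated mouse 1 or 2 (up to 0.176). Hmox1 lost it without vehicle mouse 3 or any treated mouse (up to 0.176).

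Slc7a11, the cystine importer, kept the call without any single mouse. It stood at 82.9 and 56.8 CPM in vehicle and treated mice here and at 44.3 and 201 CPM in the Cx3cr1 Fcrls Ms4a7 class (difference of log2 changes -3.10 ± 0.36, edgeR adjusted p = 3.9e-05). Retnla, a secreted protein of alternatively activated macrophages, stood at 123 and 44.0 CPM here and 397 and 2184 CPM there (-3.99 ± 0.51, adjusted p = 0.00512). Pf4, platelet factor 4, was the only one of the 13 whose difference was positive (1.02 ± 0.20, adjusted p = 0.0255), at 2023 and 2758 CPM here and 1279 and 744 CPM there. Others were Ctla2b, Gngt2, Hopx, Pla2g7, Tmcc3 and Cd9. Retnla lost its call without treated mouse 1, 2 or 3 (up to 0.308) and Pf4 without those or vehicle mouse 3 (up to 0.346).

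Against the Gpnmb Ltc4s Raph1 class only 4 of 9101 genes (0.044%) differed in edgeR's test, with 597 at an unadjusted p of at most 0.05. Treatment changed 958 of 8506 genes (11.3%) within that class. Fn1, fibronectin, stood at 2842 and 845 CPM here and 1683 and 1025 CPM there (difference of log2 changes -1.09 ± 0.16, adjusted p = 0.00128). Thbs1 stood at 541 and 900 CPM here and 356 and 1120 CPM there (-0.95 ± 0.18, adjusted p = 0.0128), Gngt2 at 394 and 116 CPM here and 264 and 184 CPM there (-1.51 ± 0.26, adjusted p = 0.0109), and Slc40a1 at 38.3 and 58.9 CPM here and 28.1 and 4.09 CPM there (3.18 ± 0.57, adjusted p = 0.0109). Fn1 lost its call without treated mouse 1 or 2 (up to 0.0973) and Thbs1 without vehicle mouse 1 or 3 or treated mouse 1 (up to 0.151). Gngt2 lost it without vehicle mouse 1 or 3 or treated mouse 2 or 3 (up to 0.136), and Slc40a1 without vehicle mouse 1 or treated mouse 1 or 2 (up to 0.537). The count was 1, 2 and 7 without vehicle mouse 1, 3 or 4, and 2, 1 and 16 without treated mouse 1, 2 or 3.

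For Ccr1, Crem and Trim25, chosen after their values were seen, the change passed the threshold in all 3 classes. Ccr1 had log2 changes of -2.74 here, -1.63 in the Cx3cr1 Fcrls Ms4a7 class and -2.13 in the Gpnmb Ltc4s Raph1 class. Crem had 2.60, 2.86 and 3.31. Trim25 had 1.30, 1.37 and 1.03. None of these 3 genes passed the threshold for a difference (edgeR adjusted p between 0.235 and 0.953), which does not show that the changes were equal. The Prg4 Alox15 Selp class held 3 treated cells in all, so no such test was run against it. Il10, Csf1r, Axl, Mertk and Abcg1, also chosen after their values were seen, fell past the threshold within the Gpnmb Ltc4s Raph1 class as well. Their log2 changes there were -1.56, -0.81, -1.36, -0.96 and -1.35, and none of them passed within the Cx3cr1 Fcrls Ms4a7 class. Apoe, Vsig4, Fcna and Cd5l did not pass within the Gpnmb Ltc4s Raph1 class. Their log2 changes were nevertheless negative there too, at -0.95, -4.90, -0.99 and -0.93, and here they were -1.73, -5.57, -0.87 and -1.32. None of them passed the threshold for a difference from that class (edgeR adjusted p = 0.216, 0.99, 0.919 and 0.993).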

How the data were processed

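Droplet libraries were deposited for 2 pools of cells (ascites, and spleen with blood), each with hashtag counts. The counts are raw UMI counts per gene and cell as deposited, made with Cell Ranger 6.1.1 on mm10, per the submitters' processing notes, with the 10x 3' v3.1 kit per the labels' protocols; annotation, filters and cell calling are not given in the sources used here. The mouse numbers and the arm come from the hashtag notes, which call the arm control that the series text calls vehicle.

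Cells with at least 200 genes, 500 UMIs and no more than 10% of UMIs from mitochondrial genes were kept. A cell was assigned to a mouse when 1 hashtag held at least 80% of at least 20 hashtag counts, and no doublet caller was run. Between the libraries 52 barcodes were shared, and 3 of these were barcodes of the class. UMIs were summed per mouse, so precision follows the 124617 to 1490775 UMIs per tested mouse.

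Genes were tested with edgeR 4.0.16 (R 4.3.3), with TMM scaling, filterByExpr, the robust quasi-likelihood test and Benjamini-Hochberg adjustment over all genes tested, at 0.05. The SE is the log2 change divided by the square root of F, and intervals cover counting error only. DESeq2 1.42.0 was an alternative. Other steps used Python 3.11.15, numpy 2.4.6, scipy 1.17.1 and matplotlib 3.10.9, and the test was checked on simulated data.

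The named genes are the 10 largest changes in each direction past the threshold, with a mean log2 CPM of at least 4, no overlap between arms and outside the gate, then up to 4 called members per gene list, and 19 fixed genes; some of these are not reported here. The members and lists were chosen with earlier results of these data known. Alternatives changed the scaling, the filters, the gate, the hashtag limit, the tool and the mice included. Same-numbered mice did not deviate together.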

Additional observations from a re-analysis of the deposited data

Results flagged for a closer look

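Several values of vehicle mouse 4 or 3 lay far from those of the other vehicle mice, and 6 of 54 groups of 4 mice were set apart in this way, where chance gives about 1 in 20. Vehicle mouse 4 held 52 cells of the class, against 69 to 72 in the others, which was 4.75% of its assigned cells against 8.14% to 8.75%. In the same mouse Itga6 stood at 188 CPM (107 to 113 in the others) and Mrc1 at 303 CPM (483 to 516). In vehicle mouse 3 Fabp5 stood at 275 CPM (216 to 226) and Stat2 at 10.3 CPM (16.8 to 17.9).

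The treatment change differed between macrophage classes in edgeR's test of the difference for 5 genes named in the comparison. Against the Cx3cr1 Fcrls Ms4a7 class the difference of log2 changes was -1.59 for Apoe, -2.19 for Axl, -4.01 for Ctla2b and -1.23 for Hmox1. Against the Gpnmb Ltc4s Raph1 class it was 3.18 for Slc40a1. Each of these lost its call in at least 1 fit that left out a mouse.

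In the spleen, which the comparisons do not use, 15 cells passed the same gate, 12 of 1818 assigned vehicle cells and 3 of 2345 treated cells. In blood 0 of 1365 vehicle and 0 of 1213 treated cells passed.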

How the results depend on the processing

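The count of 137 genes (56 higher, 81 lower) became 401 (102 higher, 299 lower) with no filter on low counts and 237 (109 and 128) with DESeq2's Wald test. Leaving out 1 mouse gave 48 to 218 genes, 20 to 95 of them higher and 28 to 123 lower. Genes higher numbered 33 when the class sum had to lead by at least 3 UMIs and 30 with at most 5% mitochondrial UMIs, both with at least 5 cells per mouse and both chosen after seeing the data, as was the limit of 3000 UMIs per cell. The other settings gave counts within 1.5 times of the main ones. The genes whose change differed from the Cx3cr1 Fcrls Ms4a7 class numbered 69 with no filter and 1 to 30 without 1 mouse, and from the Gpnmb Ltc4s Raph1 class 30 and 1 to 16. The difference in median UMIs per cell was -14100.1 to -9097.12 without 1 mouse, where fewer mice raise the smallest possible p, and -3710.58 with cells of at least 3000 UMIs.

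Directions turned for genes that did not pass the threshold: without 1 mouse the log2 change ran from -0.97 (treated mouse 1 left out; -0.01 without vehicle mouse 4) to 1.14 for Slc40a1, from -0.084 (treated mouse 1) to 0.44 for Sik1, from -2.79 to 0.11 (treated mouse 2) for Timd4, from -0.21 (treated mouse 2) to 0.23 for Folr2 and from -0.020 (treated mouse 2) to 0.38 for Sik3, and Folr2 was at -0.10 with at most 5% mitochondrial UMIs. The causes were not tested. With the replicate block 112 genes passed, 78 of them among the 137; same-numbered mice had correlations of -0.01, 0.08 and -0.02, so the numbers do not pair the mice, and 1 of 3 treated mice correlated best with its own number. Not run, because fewer than 2 treated mice remained, were the limits of 20 cells per mouse, and of 3 UMIs or 5% mitochondrial UMIs with 10 cells. The 483883 UMIs of the treated arm limit what can be seen in genes of low level.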
